A study of Rattus norvegicus with 22 samples.

Results

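The antigen processing and peptide loading pathway of MHC class I was followed across 4 groups of rat hippocampus through 10 genes, which were chosen by name for their known role in the pathway, with no threshold on a measured value. These genes were chosen with earlier results of these data known. They are B2m, Tap1, Tap2, Tapbp, Psmb8, Psmb9, Psmb10, Psme1, Psme2 and Erap1. All 10 are among the 17172 gene names of the count table, and 9 of them are among the 12875 genes with enough reads to be tested. Tap2 had almost no reads and could not be tested.

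The study measured polyadenylated RNA of the ipsilateral hippocampus of adult male Sprague-Dawley rats after lateral fluid percussion, a model of traumatic brain injury (TBI) in which a fluid pulse strikes the dura through a right-sided craniectomy. Sham rats had the same surgery and the same time under isoflurane but no pulse, so every rat in these groups carried a craniectomy. The groups were sham at day 1 (n = 2), TBI at day 1 (n = 4), sham at day 14 (n = 4) and TBI at day 14 (n = 4), 1 library for each rat, and no uninjured rat without surgery was measured. Total counts ran from 15065540 to 23743703 per library. The questions are how the pathway differed from sham at each day, and whether that difference changed between the days.

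MHC class I molecules show short peptides from the cell's own proteins to CD8 T cells. The proteasome cuts the proteins, and under interferon its 3 constitutive catalytic subunits can be replaced by inducible ones, which gives the immunoproteasome. Peptides then enter the endoplasmic reticulum through the TAP transporter, are trimmed, and are loaded with the help of tapasin onto a heavy chain that is paired with beta-2 microglobulin. Neurons hold little class I under resting conditions, whereas microglia and endothelial cells carry it and can raise it during inflammation.

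The promoters are shown first because most of them hold the sequence element through which this pathway is best known to be switched on. RefSeq's GRCr8 annotation gave a promoter, here 250 bases before to 50 bases from the gene start, for 9 of the 10 genes and none for Erap1. The core of the interferon-stimulated response element was searched as GAAA, any 2 bases and GAAA again, on both strands. It stood in 7 of the 9 promoters, against 3.92% of 33469 rat promoters of the same length. Of those 7, the windows of 5 genes are printed, from 200 bases before the gene start to 20 bases from it on, 5′ to 3′ on the gene's own strand, with each match to the core in capitals. These 5 were chosen for their roles, namely the light chain, the transporter, its partner tapasin and 2 inducible proteasome subunits.
B2m, chr3:129549130-129549349, plus strand: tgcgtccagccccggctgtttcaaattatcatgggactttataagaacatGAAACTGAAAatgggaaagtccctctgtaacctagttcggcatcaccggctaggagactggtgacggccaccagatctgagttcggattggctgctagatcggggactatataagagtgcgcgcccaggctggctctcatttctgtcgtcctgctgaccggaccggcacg
Tap1, chr20:4668524-4668743, minus strand: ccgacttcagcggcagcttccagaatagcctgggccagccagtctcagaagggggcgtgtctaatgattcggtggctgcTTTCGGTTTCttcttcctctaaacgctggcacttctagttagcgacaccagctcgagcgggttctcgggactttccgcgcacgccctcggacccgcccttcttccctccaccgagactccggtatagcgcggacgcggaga
Tapbp, chr20:4967858-4968077, minus strand: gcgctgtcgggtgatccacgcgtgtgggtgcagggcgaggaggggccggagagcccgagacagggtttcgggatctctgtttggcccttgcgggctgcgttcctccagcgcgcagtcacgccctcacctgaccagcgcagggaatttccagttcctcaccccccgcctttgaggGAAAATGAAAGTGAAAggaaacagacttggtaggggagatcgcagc
Psmb8, chr20:4657012-4657231, minus strand: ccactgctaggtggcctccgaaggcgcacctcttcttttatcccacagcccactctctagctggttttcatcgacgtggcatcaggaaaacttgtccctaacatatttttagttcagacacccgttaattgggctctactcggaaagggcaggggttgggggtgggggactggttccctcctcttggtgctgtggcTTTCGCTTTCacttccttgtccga
Psmb10, chr19:50743273-50743492, minus strand: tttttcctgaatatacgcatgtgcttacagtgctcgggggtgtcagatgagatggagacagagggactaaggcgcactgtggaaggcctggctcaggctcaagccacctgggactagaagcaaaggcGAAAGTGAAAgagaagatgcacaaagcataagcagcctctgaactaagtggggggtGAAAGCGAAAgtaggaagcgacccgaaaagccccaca

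With the gene start counted as 0, the core began at -150 in B2m, at -121 in Tap1 and at -4 in Psmb8. Psmb10 held it at -73 and again at -17, and Tapbp held overlapping copies that began at -26 and -20. Tap2 held it at -41 and Psme2 at -53, while Psmb9 and Psme1 held no match in this window, nor did the constitutive subunits Psmb5, Psmb6 and Psmb7. A kappaB site by its usual consensus was found in B2m, Tap1 and Tapbp, 3 of 9 promoters against 7.51% of all, and it overlapped no match to the interferon core. The gamma-activated site TTCNNNGAA was found in Psmb8 alone, 1 of 9 against 8.87% of all. Tap1 and Psmb9 lie head to head on chromosome 20 with their starts 457 bases apart, and their promoter windows share 44 bases. A match of letters is a description and does not show that a factor binds there.

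At day 1, the levels of 7 of the 9 tested genes were higher in TBI than in sham and none was lower (edgeR's quasi-likelihood test, adjusted p under 0.05 over 12875 genes). Over all tested genes 11.2% were called higher and 7.93% lower. The median log2 fold change of the 9 genes was 1.28, against -0.02 over all genes. At day 14, 5 of the 9 were higher and none was lower, where 4.07% of all genes were called higher and 0.365% lower. Their median at day 14 was 0.68, against -0.03. Since the genes were chosen with earlier results of these data known, the comparison with all genes is a description. Psmb8 and Psmb9, which encode inducible subunits of the proteasome, had the largest fold changes of the 9 at both days, and tapasin and the trimming peptidase ERAP1 passed the test at neither day. In bulk tissue, fewer cells of a type and less RNA per cell cannot be told apart, and the same holds for more of either.

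**Figure D1:**
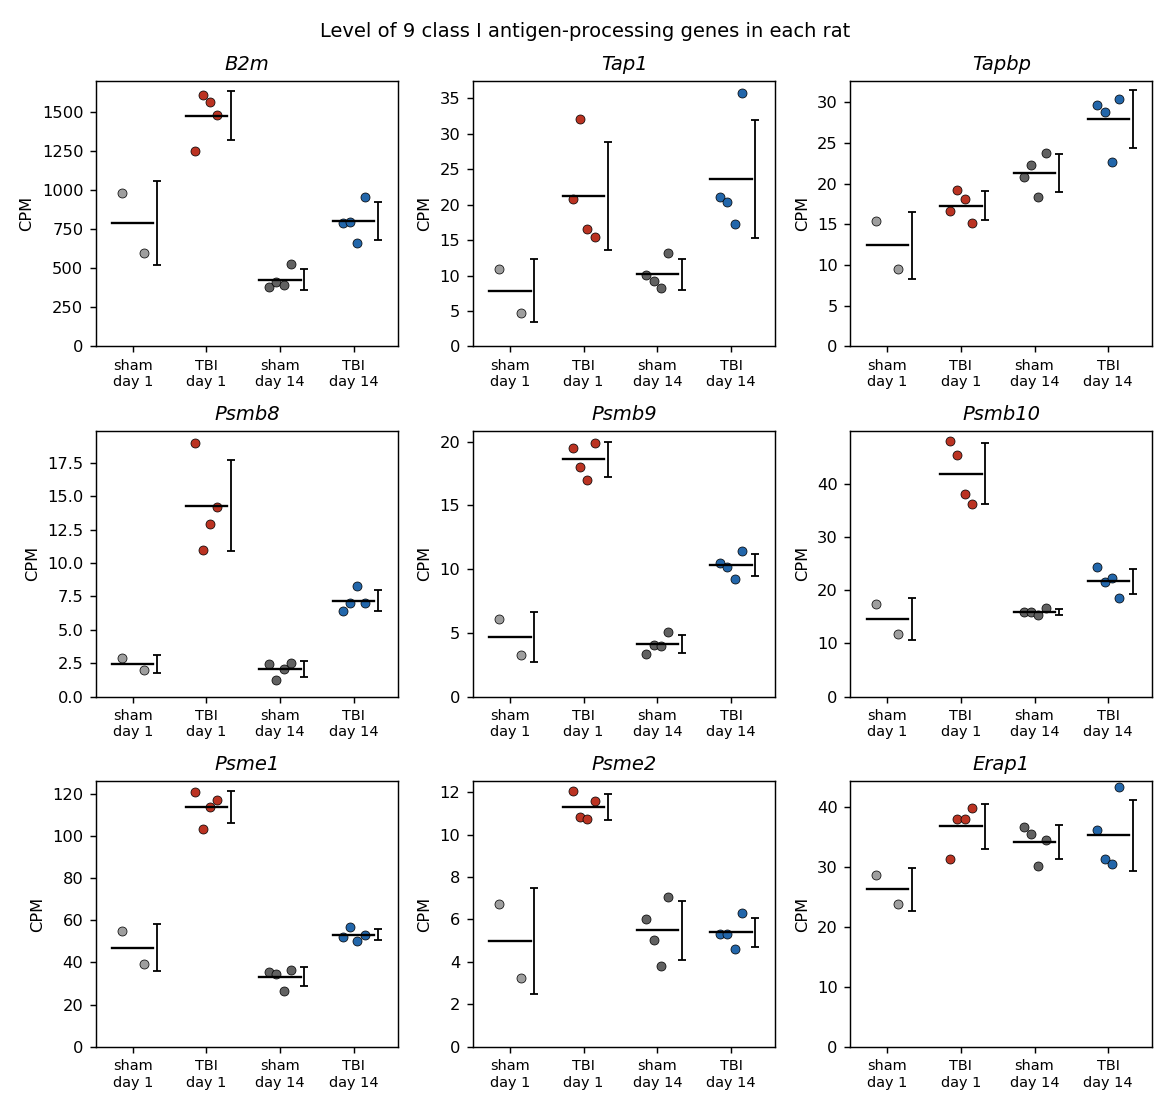
Level in CPM (counts scaled to library size, y axis from 0) of the 9 tested genes in each of the 14 rats, by group (x axis). Points are rats, horizontal lines are group means and the bars beside them are ± SD. The 4 day 1 TBI rats lie above both day 1 shams for every gene but Tapbp, and the day 14 TBI rats lie between the sham and day 1 TBI rats for Psmb8, Psmb9 and Psmb10.

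B2m encodes beta-2 microglobulin, the light chain that every classical class I molecule needs to reach the cell surface. In the order of the replicate numbers, its level in CPM, counts scaled to the library's size, was 983 and 599 in the day 1 shams and 1255, 1611, 1566 and 1486 CPM in the day 1 TBI rats. Its day 14 levels were 378, 412, 392 and 529.5 CPM in sham and 792, 799, 663 and 961 CPM in TBI. TBI lay above sham of the same day without overlap at both days, and the day 14 TBI rats fell within the range of the day 1 shams. The log2 fold change was 0.90 (SE 0.217, edgeR adjusted p = 0.0101) at day 1 and 0.91 (SE 0.172, edgeR adjusted p = 0.00457) at day 14.

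The day 1 value of B2m depended on 1 of the 2 shams, since without day 1 sham replicate 2 it was 0.59 (edgeR adjusted p = 0.169). B2m also differed between the shams themselves, by 0.89 from day 14 to day 1 (edgeR adjusted p = 0.00994). Without the day 1 sham replicate 1, a library high in choroid plexus markers, that difference between shams was 0.49. When the 3 libraries high in these markers were left out, the log2 fold change of B2m in TBI over sham was 1.29 at day 1 and 1.06 at day 14.

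Tap1 encodes 1 of the 2 chains of the peptide transporter. It measured 11.0 and 4.75 CPM in the day 1 shams and 20.8, 32.1, 16.5 and 15.4 CPM in the day 1 TBI rats. In the day 14 rats it was 10.1, 9.19, 8.22 and 13.2 CPM in sham and 21.0, 20.3, 17.3 and 35.8 CPM in TBI. The groups did not overlap at either day, but each TBI group held 1 rat well above the other 3, replicate 2 at day 1 and replicate 4 at day 14. On the log2 scale Tap1 was higher by 1.44 at day 1 (SE 0.394, edgeR adjusted p = 0.0203) and by 1.21 at day 14 (SE 0.304, edgeR adjusted p = 0.0324). At day 1 the value was 0.95 without sham replicate 2 (edgeR adjusted p = 0.249), and at day 14 the call was lost in 5 of the fits that left out 1 library, with values of 0.94 to 1.27.

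Tap2 encodes the other chain of the transporter. Day 1 TBI replicate 2 held 2 counts and the other 13 libraries held 0, where a count of 0 allows up to 0.134 to 0.199 CPM at these depths, by counting error only. The level of Tap2 was thus not detectable, at depths where its partner Tap1 had 103 to 790 counts per library. Whether this is a matter of the gene model used for counting was not tested.

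Tapasin, encoded by Tapbp, holds the empty class I molecule beside the transporter. It measured 15.4 and 9.54 CPM in the day 1 shams and 16.7, 19.2, 18.2 and 15.2 CPM in the day 1 TBI rats. Day 14 levels were 20.8, 22.3, 18.4 and 23.8 CPM in sham and 29.7, 28.8, 22.7 and 30.4 CPM in TBI. The groups overlapped at both days, and the log2 fold changes of 0.48 (SE 0.199, edgeR adjusted p = 0.105) and 0.39 (SE 0.158, edgeR adjusted p = 0.269) did not pass the test. The day 1 value turned on the choice of sham: it was 0.86 without sham replicate 1 (edgeR adjusted p = 0.0155) and -0.30 against the day 14 shams (edgeR adjusted p = 0.135).

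ERAP1 shortens peptides in the endoplasmic reticulum to the length that class I binds. Erap1 measured 28.7 and 23.7 CPM in the day 1 shams and 31.3, 38.0, 37.9 and 39.8 CPM in the day 1 TBI rats. By day 14 it stood at 36.6, 35.4, 30.2 and 34.4 CPM in sham and 36.1, 31.3, 30.4 and 43.2 CPM in TBI. The day 1 groups did not overlap, but the log2 fold change of 0.49 (SE 0.168) missed the threshold with an edgeR adjusted p of 0.0551. It passed with DESeq2 (0.48, adjusted p = 0.0323). At day 14 the groups overlapped and the value was 0.05 (SE 0.134, edgeR adjusted p = 0.957).

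The inducible catalytic subunits of the proteasome were all higher after injury at day 1, and 2 of the 3 passed the test at day 14. Psmb8, which encodes the subunit beta-5i, measured 2.91 and 1.98 CPM in the day 1 shams and 19, 11.0, 12.9 and 14.2 CPM in the day 1 TBI rats. Its day 14 levels were 2.43, 1.26, 2.06 and 2.50 CPM in sham and 6.43, 6.97, 8.30 and 7.02 CPM in TBI. Every TBI rat lay above every sham rat of either day. The ratio of the group means was 5.84 at day 1 and 3.48 at day 14, with log2 fold changes of 2.55 (SE 0.311, edgeR adjusted p = 7.97e-05) and 1.80 (SE 0.239, edgeR adjusted p = 0.000264).

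Psmb9, which encodes beta-1i, measured 6.09 and 3.27 CPM in the day 1 shams and 19.5, 18.0, 17.0 and 19.9 CPM in the day 1 TBI rats. In the day 14 rats it was 3.34, 4.03, 3.95 and 5.06 CPM in sham and 10.5, 10.1, 9.24 and 11.4 CPM in TBI. Here too, every TBI rat lay above every sham rat. The log2 fold change was 1.99 at day 1 (SE 0.247, edgeR adjusted p = 8.68e-05) and 1.33 at day 14 (SE 0.191, edgeR adjusted p = 0.000478).

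Psmb10, which encodes beta-2i, measured 17.4 and 11.8 CPM in the day 1 shams and 48.0, 45.5, 38.0 and 36.1 CPM in the day 1 TBI rats. Day 14 levels were 15.9, 15.9, 15.3 and 16.5 CPM in sham and 24.3, 21.5, 22.3 and 18.6 CPM in TBI. The groups did not overlap at either day, yet the day 14 difference was small. The log2 fold change of 1.52 at day 1 (SE 0.187, edgeR adjusted p = 8.09e-05) passed the test and that of 0.44 at day 14 (SE 0.144, edgeR adjusted p = 0.123) did not. At day 14 Psmb10 passed when only the day 14 groups were fitted (0.48, edgeR adjusted p = 0.0139).

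The activator PA28, a ring of the products of Psme1 and Psme2, caps the proteasome and promotes the release of peptides. Psme1 measured 54.7 and 39.1 CPM in the day 1 shams and 121, 103, 114 and 117 CPM in the day 1 TBI rats. By day 14 it stood at 35.2, 34.5, 26.5 and 36.5 CPM in sham and 52.1, 56.9, 50.3 and 53.2 CPM in TBI. TBI lay above sham of the same day without overlap, by log2 fold changes of 1.28 (SE 0.165, edgeR adjusted p = 0.000127) and 0.68 (SE 0.129, edgeR adjusted p = 0.00461). In the GRCr8 annotation Psme1 overlaps the gene Emc9, and the strand setting of the counting is not given in the sources used here, so some reads could belong to that gene.

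Psme2 measured 6.74 and 3.23 CPM in the day 1 shams and 12, 10.8, 10.7 and 11.6 CPM in the day 1 TBI rats. Its day 14 levels were 6.03, 5.05, 3.79 and 7.08 CPM in sham and 5.31, 5.33, 4.62 and 6.28 CPM in TBI. All 4 day 1 TBI rats lay above both shams, whereas at day 14 the TBI rats lay within the sham range. The log2 fold change was 1.19 at day 1 (SE 0.292, edgeR adjusted p = 0.0117) and -0.03 at day 14 (SE 0.232, edgeR adjusted p = 0.986). Without day 1 sham replicate 2 the day 1 value was 0.74 (edgeR adjusted p = 0.175).

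Of the 9 tested genes, 8 lay above sham in all 4 day 1 TBI rats and 6 did so at day 14. Such a separation above sham was found for 16.7% of all genes at day 1 and 9.13% at day 14, and below sham for 14.1% and 5.86%. None of the 9 lay below sham without overlap at either day. With only 2 shams at day 1, the call for a single gene there rests on few values. When either day 1 sham was left out, Psmb8, Psmb9, Psmb10 and Psme1 kept their day 1 calls, and without sham replicate 2 these 4 were the only calls left.

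**Figure D2:**
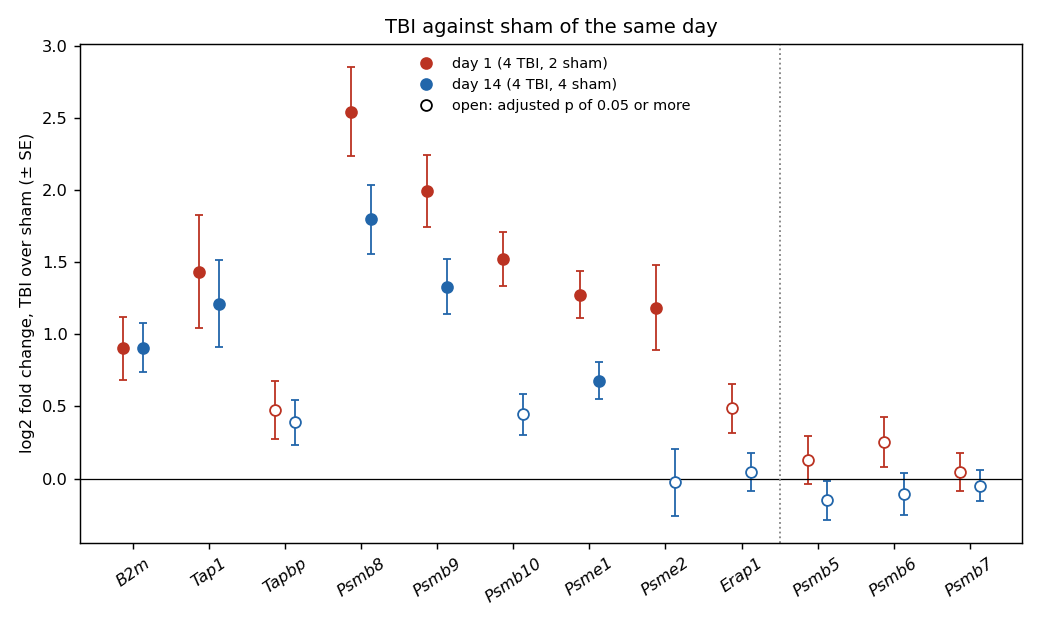
Log2 fold change of TBI over sham of the same day (y axis, ± SE from edgeR) for the 9 tested genes and, right of the dotted line, the 3 constitutive catalytic subunits. Filled points have an adjusted p under 0.05: 7 genes at day 1 and 5 at day 14, with Psmb8 highest at 2.55 and 1.80, and none of Psmb5, Psmb6 and Psmb7.

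The constitutive subunits, whose places the inducible ones take, did not pass the test at either day. Psmb5, counterpart of Psmb8, had log2 fold changes of 0.13 (SE 0.167) and -0.15 (SE 0.136). Psmb6, counterpart of Psmb9, had 0.25 (SE 0.176) and -0.11 (SE 0.146), and Psmb7, counterpart of Psmb10, had 0.05 (SE 0.131) and -0.05 (SE 0.107). The edgeR adjusted p of these 6 values ran from 0.33 to 0.931. The choice of sham mattered here too: against the day 14 shams, Psmb6 (0.67, edgeR adjusted p = 0.00166) and Psmb7 (0.47, edgeR adjusted p = 0.00268) were called higher in day 1 TBI, while Psmb5 had -0.15.

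The ratio of inducible to constitutive counts within a rat needs no scaling between libraries. For every 100 counts of Psmb5, Psmb8 had 4.13 and 4.02 counts in the day 1 shams and 31.2, 16.3, 17.0 and 24.7 counts in the day 1 TBI rats. At day 14 the same ratio was 3.28, 1.70, 2.94 and 3.51 in sham and 10.3, 10.6, 10.7 and 12.7 in TBI. The ratio was thus higher in each injured rat than in any sham. On average it was 5.24 times the sham ratio at day 1 and 3.97 times at day 14, from means of log2 ratios.

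For every 100 counts of Psmb6, Psmb9 had 60.1 and 42.0 counts in the day 1 shams and 153 to 211 in the day 1 TBI rats. At day 14 it had 51.5 to 71.0 in sham and 131 to 195 in TBI. Psmb9 counts were therefore below those of Psmb6 in each sham and above them in each injured rat, on a scale of counts that is not corrected for transcript length. The ratio rose to 3.46 times sham at day 1 and 2.73 times at day 14.

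For every 100 counts of Psmb7, Psmb10 had 13.6 and 8.26 counts in the day 1 shams and 24.1 to 39.0 in the day 1 TBI rats. At day 14 it had 13.9 to 17.3 in sham and 20.3 to 25.1 in TBI. The separation was complete but narrower, at 2.81 times sham at day 1 and 1.41 times at day 14. All 3 pairs at both days gave the smallest p that an exact two-sided permutation test over rats allows, 0.0667 for 2 against 4 rats and 0.0286 for 4 against 4. Adjusted over the 6 tests these are 0.0667 and 0.0571, so no ratio passed 0.05, and with 6 tests neither day could have done so.

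**Figure D3:**
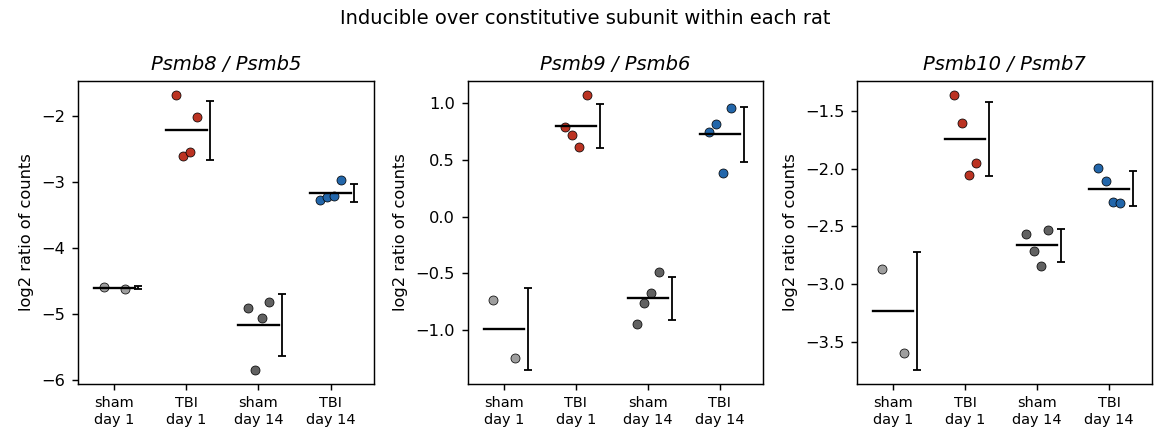
Log2 ratio of the counts of an inducible subunit to those of its constitutive counterpart (y axis) within each rat, by group (x axis). Points are rats, lines are means and bars are ± SD. In all 3 pairs each TBI rat lies above each sham rat of its day, by means of 2.39 and 1.99 for Psmb8 over Psmb5 and of 1.49 and 0.49 for Psmb10 over Psmb7 at days 1 and 14.

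The change of the injury effect between the days was tested as its own contrast. Psmb10 was the 1 gene of 9 called there, with an effect lower by 1.08 on the log2 scale at day 14 (difference -1.08, SE 0.230, edgeR adjusted p = 0.0192). None was called in the other direction, where 2.24% of all genes were called lower and 1.44% higher. Psme2 had a difference of -1.21 (SE 0.369, edgeR adjusted p = 0.0833), which passed with DESeq2 (-1.21, adjusted p = 0.0244). B2m had a difference of 0.01 (SE 0.269) and Tap1 of -0.22 (SE 0.480). The Psmb10 call was lost without day 1 sham replicate 2 (-0.82, edgeR adjusted p = 0.0933), and the number of genes called lower ran from 0 to 4 when 1 library at a time was left out.

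Between the injured groups themselves, 6 of the 9 genes were lower at day 14 than at day 1 and 1 was higher. Over all genes 21.9% were called lower and 17.6% higher. Psme1 fell by 1.10 on the log2 scale, Psme2 by 1.07, Psmb8 by 0.99, Psmb10 by 0.95, B2m by 0.88 and Psmb9 by 0.85, with edgeR adjusted p from 2.29e-05 to 0.00279. Each of these 6 had all day 14 TBI rats below all day 1 TBI rats. Tapbp was the gene that rose, by 0.69 (edgeR adjusted p = 0.00337), and its day 14 TBI rats all lay above the day 1 TBI rats. Tap1 (0.15, edgeR adjusted p = 0.711) and Erap1 (-0.06, edgeR adjusted p = 0.754) had overlapping ranges. These counts of 6 and 1 were the same whichever single library was left out. The rest of the proteasome was lower at day 14 in this comparison as well, with 8 of 11 other subunits of the 20S core, 14 of 21 genes of the 19S regulatory particle and 2 of the 3 constitutive counterparts called lower, Psmb6 (-0.78) and Psmb7 (-0.52), and none called higher. The medians of the first 2 lists were -0.68 and -0.37, against -0.88 for the 9 antigen processing genes.

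The sham groups themselves differed between the days. B2m (0.89) and Psme1 (0.50, edgeR adjusted p = 0.0367) were higher in the day 1 than in the day 14 shams and Tapbp was lower (-0.78, edgeR adjusted p = 0.0173), 2 and 1 of 9 genes where 11.3% and 7.88% of all genes were called. Neither higher call was left when the day 1 sham replicate 1 was left out. Against the day 14 shams, 7 of the 9 genes were higher in day 1 TBI and none was lower, beside 25.0% and 21.0% of all genes. In that comparison, which has 4 rats on each side, Psmb8 had a log2 fold change of 2.79, Psmb9 of 2.18, B2m of 1.79 and Psme1 of 1.78, and Tapbp had one of -0.30. It shares its rats with the other contrasts and is not a separate experiment.

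The order of the group means therefore differed by gene. Psmb8 and Psmb9 were highest in day 1 TBI, lower in day 14 TBI and lowest in the shams, whose days overlapped, and Psmb10 had the same order. B2m and Psme1 were highest in day 1 TBI and lowest in day 14 sham, with day 14 TBI and day 1 sham overlapping between them. Psme2 was highest in day 1 TBI, with the other 3 groups overlapping. Tap1 was high in both injured groups, which overlapped, and low in both sham groups, which overlapped too. Tapbp was highest in day 14 TBI and lowest in day 1 sham, and neighbouring groups in its order overlapped. Erap1 was lowest in day 1 sham, with the other 3 groups overlapping.

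Over the 14 libraries the log2 CPM of Psmb8 and Psmb9 were the closest pair of the 9 genes (Pearson r = 0.963) and Tapbp and Psme1 the least alike (r = -0.15). The libraries share group membership, so these values are descriptions. The 5 other genes whose pattern was nearest to the mean of the 9, each gene scaled to the same spread, were Ltbr (r = 0.985), Fcgr1a (0.985), Eva1b (0.984), Ifitm3 (0.983) and Cd63 (0.981), over 14 libraries. Ltbr encodes the lymphotoxin beta receptor, Fcgr1a a high-affinity receptor for IgG, Ifitm3 an interferon-induced membrane protein and Cd63 a tetraspanin of late endosomes.

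The rest of the proteasome was compared from lists of its parts, beside 11.2% of all genes called higher at day 1 and 4.07% at day 14. Of the 11 other subunits of the 20S core, 3 were called higher at day 1, namely Psmb4 (log2 fold change 0.65), Psma6 (0.54) and Psmb2 (0.53), and none at day 14. The medians of these 11 were 0.33 and -0.07. Of the 21 genes of the 19S regulatory particle, which unfolds proteins marked with ubiquitin, 3 were higher at day 1, namely Psmd8 (0.46), Psmd5 (0.43) and Psmc4 (0.42), and none at day 14. Among 6 tested genes of other activators, the proteasome inhibitor PI31 and assembly chaperones, Psme4 (0.77), which encodes the activator PA200, and Psmg1 (0.52) were higher at day 1 and none at day 14. No gene of these lists was called lower than sham at either day. All 8 of these day 1 calls were lost without day 1 sham replicate 2 and when only the day 1 groups were fitted. Against the day 14 shams, Psmb4 (0.15, edgeR adjusted p = 0.431), Psmd8 (0.27, edgeR adjusted p = 0.061) and Psme4 (0.06, edgeR adjusted p = 0.791) were not called and the other 5 were.

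Psme3 encodes the nuclear relative of PA28 and is the natural comparison for Psme1 and Psme2. It measured 140.3 and 210.5 CPM in the day 1 shams and 119.7 to 215 CPM in the day 1 TBI rats, with a log2 fold change of -0.04 (SE 0.205, edgeR adjusted p = 0.915). At day 14 the value was -0.06 (SE 0.169, edgeR adjusted p = 0.954). The day 1 TBI rats spread over both sides of the shams, and against the day 14 shams, which were lower at 76.8 to 87.2 CPM, the day 1 value was 1.08 (edgeR adjusted p = 0.000153).

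Of 7 other genes of peptide loading, among them chaperones of the endoplasmic reticulum, none was called at either day. The nearest was Tapbpl, which encodes a tapasin-related editor of peptides, at 0.75 (SE 0.319, edgeR adjusted p = 0.113) and 0.94 (SE 0.255, edgeR adjusted p = 0.0504). Over all genes 11.2% were called higher at day 1 and 4.07% at day 14. Of 7 other trimming peptidases, Lap3, a leucine aminopeptidase of the cytosol, was the 1 gene called. It measured 94.7 and 103 CPM in the day 1 shams and 171 to 247 CPM in the day 1 TBI rats, a log2 fold change of 1.11 (SE 0.176, edgeR adjusted p = 0.000653), and its day 14 value was 0.62 (SE 0.137, edgeR adjusted p = 0.0144). The day 14 call of Lap3 was lost in 3 of the 14 fits that left out 1 library.

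**Figure D4:**
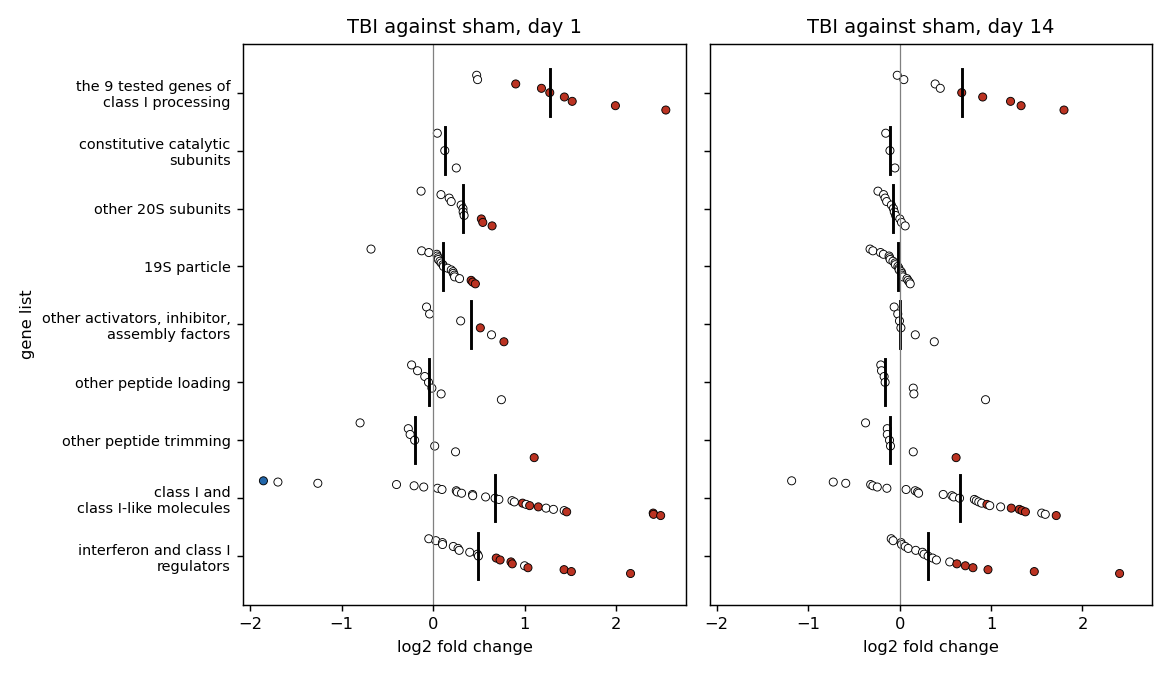
Log2 fold change of TBI over sham (x axis) for each tested gene of 9 lists (y axis), at day 1 on the left and day 14 on the right. Each point is a gene, filled where its edgeR adjusted p is under 0.05 (red higher, blue lower), and thick lines are list medians. The medians of the 9 genes followed here are 1.28 and 0.68, while those of the other 20S subunits are 0.33 and -0.07.

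The molecules that receive the peptides are the class I heavy chains, RT1 in the rat. This is a multigene family with near-identical copies, and reads of 50 bases can be split among its members, so single RT1 values are uncertain. Of 44 class I and class I-like genes, 29 were tested, and 7 were higher and 1 was lower at day 1, while 6 were higher and none was lower at day 14. Over all tested genes, 11.2% were called higher and 7.93% lower at day 1, and 4.07% and 0.365% at day 14. The list medians were 0.68 and 0.66. RT1-A2, a classical heavy chain, measured 64.6 and 29.9 CPM in the day 1 shams and 80.9, 109, 67.3 and 115 CPM in the day 1 TBI rats. In the day 14 rats it was 26.2, 25.3, 35.8 and 36.0 CPM in sham and 76.2, 107, 102 and 119.7 CPM in TBI. The groups did not overlap at either day, and the log2 fold changes were 0.98 (SE 0.300, edgeR adjusted p = 0.0341) and 1.71 (SE 0.242, edgeR adjusted p = 0.000424). RT1-A2 lies outside the naming rule and was added after its values were seen.

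RT1-A1, also a classical heavy chain, rose by 2.41 on the log2 scale at day 1 (SE 0.750, edgeR adjusted p = 0.0364). Its level was 116 CPM in day 1 TBI replicate 3 and 17.3 to 21.1 CPM in the other 3, and the call was lost without that rat. Day 14 levels were 11.6 to 13.5 CPM in sham and 27.6 to 48.1 CPM in TBI, a value of 1.55 that did not pass (SE 0.554, edgeR adjusted p = 0.176). That day 14 value passed without the same day 1 rat (1.55, edgeR adjusted p = 0.00772) and when only the day 14 groups were fitted (1.59, edgeR adjusted p = 7.36e-05). RT1-M1-4 (2.49, edgeR adjusted p = 0.0239) and RT1-T24-1 (2.41, edgeR adjusted p = 0.0104) were called at day 1 from low counts, and against the day 14 shams their values were -0.89 and -0.05.

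Hfe, a class I-like gene of iron control, was the 1 gene of this list called lower at day 1, at -1.86 (SE 0.538, edgeR adjusted p = 0.0264). The day 1 shams measured 8.89 and 1.61 CPM and the day 1 TBI rats 1.09 to 2.02 CPM. The higher sham was the day 1 library high in choroid plexus markers, and without the 3 libraries of that kind the value was -0.18 (edgeR adjusted p = 0.781).

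Of 19 tested regulators of the interferon and class I response, 8 were higher at day 1 and 6 at day 14, and none was lower. The shares of all genes called higher were 11.2% at day 1 and 4.07% at day 14. Irf1, a transcription factor that binds the interferon core, measured 12 and 8.44 CPM in the day 1 shams and 29.1, 40.2, 22.8 and 18.3 CPM in the day 1 TBI rats. Its log2 fold change was 1.43 at day 1 (SE 0.270, edgeR adjusted p = 0.00228) and 0.80 at day 14 (SE 0.210, edgeR adjusted p = 0.0409). The day 1 call of Irf1 was lost when only the day 1 groups were fitted (1.46, edgeR adjusted p = 0.0549). Without day 1 sham replicate 2 its day 1 value was 1.20. Its day 14 call was lost with limma-voom (0.79, adjusted p = 0.0916) and in 8 of the 14 fits that left out 1 library. That call was also lost with the replicate number as a block (0.81, edgeR adjusted p = 0.0814). The same held with a choroid plexus score as covariate (0.77, edgeR adjusted p = 0.108). All TBI rats lay above all shams of the same day at both days.

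Irf8, a factor of myeloid cells, had log2 fold changes of 1.51 (SE 0.283) at day 1 and 2.41 (SE 0.226) at day 14, and Stat3, the factor of the interleukin-6 family, had 2.16 (SE 0.209) and 0.63 (SE 0.154). The day 14 call of Stat3 was lost in 6 of the 14 fits that left out 1 library. Irf7 had 1.00 (SE 0.382, edgeR adjusted p = 0.0792) and 1.47 (SE 0.300, edgeR adjusted p = 0.00766). Nlrc5, the class I transactivator, has no row in the table and is not analysed here.

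Transcripts of the interferons themselves were at or near 0. Of the 6 interferon ligand genes in the table, Ifng, Ifna1, Ifna2 and Ifnk had no count in any of the 14 libraries, Ifnb1 had at most 1 count and Ifna4 at most 5. A count of 0 limits each to 0.122 to 0.199 CPM per library, and at 2 sampled days nothing can be said of the hours between.

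Levels of immune cell markers were taken over the same groups. For the counts of called markers here and below, the shares over all genes were 11.2% higher and 7.93% lower at day 1. At day 14 these shares were 4.07% and 0.365%. The summed level of 13 microglia and macrophage markers ran from 497 to 813 CPM in the day 1 shams and from 1029 to 1326 CPM in day 1 TBI. At day 14 it ran from 594 to 758 CPM in sham and from 1376 to 2458 CPM in TBI. All 13 were tested, and 6 were higher and 2 lower at day 1 (P2ry12 and Tmem119, markers of resting microglia), while 12 were higher at day 14. Between the TBI groups, 6 of the 13 were higher at day 14 and 1, Tyrobp, was lower (-0.56, edgeR adjusted p = 0.0154). In that contrast 17.6% of all genes were called higher and 21.9% lower.

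Blood monocyte and neutrophil markers, 8 in the table, summed to 95.2 to 138 CPM in the day 1 shams, 265 to 675 CPM in day 1 TBI, 109 to 151 CPM in the day 14 shams and 198 to 264 CPM in day 14 TBI. The sum was mostly the level of 1 gene, Chi3l1, with a mean log2 CPM of 7.96 against at most 2.36 for the other tested genes. It therefore says little of the rest of the list. Of the 7 tested, 6 were higher at day 1 and none at day 14. Chi3l1 had log2 fold changes of 1.97 at day 1 (edgeR adjusted p = 0.00177) and 0.95 at day 14 (edgeR adjusted p = 0.063). The summed level of 8 endothelial markers was 261 to 454 CPM in the day 1 shams, 535 to 889 CPM in day 1 TBI, 308 to 443 CPM in the day 14 shams and 262 to 359 CPM in day 14 TBI. At day 1, 2 of the 8 were called higher, Vwf (1.88) and Pecam1 (1.14), and 6 were not called. The day 1 log2 fold changes of the list ran from -0.73 to 1.88 with a median of 0.48. None of the 8 was called at day 14. The part of these cells in the changes of antigen processing genes was not tested.

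The 14 markers of T and NK cells summed to 4.01 to 18.9 CPM in the day 1 shams, 8.40 to 22.8 CPM in day 1 TBI, 12.6 to 27.7 CPM in the day 14 shams and 41.4 to 85.3 CPM in day 14 TBI. Of these 14 genes 5 had enough reads to be tested, and 3 were higher at day 1 and 1 at day 14. Cd8a, which other immune cells of the rat can carry too, measured 0.216 and 0.138 CPM in the day 1 shams and 2.15 to 6.69 CPM in day 1 TBI, a log2 fold change of 4.40 (SE 0.743, edgeR adjusted p = 0.00103). Its day 14 levels were 0 to 0.163 CPM in sham and 0.265 to 0.586 CPM in TBI. Cd2 was higher at day 1 as well (5.31, SE 1.08, edgeR adjusted p = 0.00364), and Cd8b, at 0 in both day 1 shams, measured 0.104 to 2.70 CPM in day 1 TBI (edgeR adjusted p = 0.013).

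Cd4, which rat microglia and macrophages can also carry, was the gene called at day 14, with 5.57 to 7.21 CPM in sham and 24.2 to 68.5 CPM in TBI (2.69, SE 0.329, edgeR adjusted p = 0.000127). The genes of the CD3 chains, which define T cells, were unlike each other. Cd3d had at most 5 counts and Cd3g at most 6 in a library, whereas Cd3e measured 8.51 and 0.138 CPM in the day 1 shams, 0.415 to 9.89 CPM in day 1 TBI, 6.43 to 20 CPM in the day 14 shams and 14.8 to 20.5 CPM in day 14 TBI. Cd3e was called at neither day against sham and was higher in day 14 than in day 1 TBI (2.52, edgeR adjusted p = 0.0359). The part of T and NK cells was not tested.

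Markers of the cells native to the hippocampus were detected in every group, and some were called at day 1. The summed level of 10 neuron markers was 8097 to 11572 CPM in the day 1 shams and 3552 to 6869 CPM in day 1 TBI, and 4 of the 10 were called lower. Among 8 oligodendrocyte markers 2 were lower at day 1, and among 5 tested markers of hippocampal subfields 2 were lower. The sum of 8 astrocyte markers was 6672 to 10656 CPM in the day 1 shams and 13656 to 20060 CPM in day 1 TBI, where Gfap, the filament protein of reactive astrocytes, was the 1 gene called (3.10, SE 0.323, edgeR adjusted p = 2.02e-05). At day 14 Gfap was again higher (2.06) and no other gene of these 4 lists was called. The part of these shifts in the levels of the antigen processing genes was not tested.

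Choroid plexus markers, 18 genes, were high in 3 libraries, day 1 sham replicate 1 and day 14 TBI replicates 2 and 3, where the sum reached 11418 CPM in sham and 8878 CPM in TBI against 128 to 157 CPM in day 1 TBI. Without these 3 libraries, 8 of the 9 antigen processing genes were higher at day 1, Tapbp among them (0.84, edgeR adjusted p = 0.0214), and 5 at day 14. That choice was made after the data were seen, and it leaves 1 day 1 sham, which is assumed to vary like the other groups.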

How the data were processed

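The authors deposited a table of raw counts per gene for 14 hippocampus libraries, 1 per rat. Libraries were stranded and polyA selected, with single-end reads of 50 bases. Per the study's methods and the submitters' processing notes, the authors checked reads with FastQC 0.11.8, aligned them to rn5 with STAR 2.4.2a and counted them with featureCounts 1.5.0 on UCSC genes; the strand setting is not given in the sources used here. Reads carry no molecular identifiers, so limits drawn from a count of 0 cover counting error only. The labels name no batch. Group sizes follow the labels; 1 passage of the study's methods gives fewer day 14 sham rats. Total counts were 15065540 to 23743703 per library, and genes with few counts are the least precise. The 4 lists of H3K4me3 peaks that were also deposited give rn5 positions and were not used here, since no annotation of that build was at hand.

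Counts were tested with edgeR 4.0.16 in R 4.3.3, by the quasi-likelihood method with TMM factors, the filterByExpr filter and Benjamini-Hochberg adjustment over 12875 genes (two-sided, threshold 0.05). A single fit over the 4 groups gave 6 contrasts, so that the 2 day 1 shams borrowed the spread of the other groups. The script was tested on simulated data. Levels are CPM, counts scaled to the library's size with its TMM factor, and correlations were taken on log2 CPM (prior count 2). Ratios of subunits used counts plus 0.5 and an exact permutation test over rats. The authors used limma, and limma-voom 3.58.1 and DESeq2 1.42.0 were run as alternatives, beside other factors, filters, baselines, a replicate block, a choroid plexus score as covariate and leaving out each library. Leaving out 3 libraries high in choroid plexus markers was added after seeing the data. Promoters came from RefSeq (GRCr8).

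The members and the lists were chosen with earlier results of these data known. Named are all 10 members, Psmb5, Psmb6, Psmb7, Psme3, Nlrc5 and Irf1, and from each other pathway list at most 4 genes called at either day, those with the largest change; 1 further gene of the rule is not reported here. The 5 genes of most similar pattern are those with the highest Pearson r to the mean scaled level of the members. RT1-A2, Tapbpl, the T cell genes, P2ry12, Tmem119, Tyrobp, Chi3l1, Vwf, Pecam1, Gfap and the interferon genes were named outside this rule, after their values were seen.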

Additional observations from a re-analysis of the deposited data

Results flagged for a closer look

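By the test of the difference itself, the effect of TBI differed between the days for 1 antigen processing gene, Psmb10. Among the other genes named in the text, it also differed for Stat3, Hfe, P2ry12, Tmem119, Cd4 and Vwf. For Psmb10, which encodes the inducible subunit beta-2i, the log2 fold change of TBI over sham was 1.52 at day 1 and 0.44 at day 14, a difference of -1.08 (edgeR adjusted p = 0.0192). For Stat3, it was 2.16 at day 1 and 0.63 at day 14, a difference of -1.53 (edgeR adjusted p = 0.00483). For Hfe, it was -1.86 at day 1 and 0.82 at day 14, a difference of 2.67 (edgeR adjusted p = 0.0488), with the highest levels in libraries that were also high in choroid plexus markers, 8.89 CPM in day 1 sham replicate 1 and 11.8 CPM in day 14 TBI replicate 3. The part of the choroid plexus in the Hfe values was not tested further. Of the immune markers, P2ry12 had log2 fold changes of -0.88 (day 1) and 1.25 (day 14), a difference of 2.14 (edgeR adjusted p = 0.00246). Tmem119 had -1.90 and 0.37 (difference 2.27, edgeR adjusted p = 0.0199), and Cd4 had -0.52 and 2.69 (difference 3.21, edgeR adjusted p = 0.00381). Vwf, an endothelial marker, had 1.88 and -0.35 (difference -2.23, edgeR adjusted p = 0.00668).

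Dixon's test was run on log2 levels in the 3 groups of 4 rats, for the 9 tested antigen processing genes and the 3 subunit ratios (36 groups, in which no rat stood apart) and for 32 other genes named in the text (96 groups, of which 5 held such a rat). Chance flags about 1 in 20. RT1-A1 measured 116 CPM in day 1 TBI replicate 3 and at most 21.1 CPM in the other 3, with a gap of 0.897 of the group's range. Irf7 measured 12 CPM in day 1 TBI replicate 2 and 8.56 to 8.76 CPM in the others (gap 0.933 of the range). Irf1 measured 22.4 CPM in day 14 TBI replicate 4 and 17.4 to 17.8 CPM in the others (gap 0.898 of the range). Stat3 was low in day 14 sham replicate 1, at 53.1 against 60.3 to 61.7 CPM (gap 0.846 of the range), and Gfap in day 14 TBI replicate 3, at 4259 against 6486 to 7031 CPM (gap 0.839 of the range).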

How the results depend on the processing

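At these depths Tap2 and the interferon genes had too few counts to be tested, and every contrast with the day 1 shams rests on 2 rats. The counts of antigen processing genes called at day 1 were 7 higher and 0 lower. They became 4 higher when only the day 1 groups were fitted and ran from 4 to 8 when 1 library at a time was left out. At day 14 the 5 higher became 3 against all 6 shams. For the difference between the days, DESeq2 called 2 genes lower in place of 1, and leaving out libraries gave 0 to 4. Between the shams, 2 genes were higher, against 1 with the replicate block, the choroid plexus covariate, limma-voom or only the groups compared, 0 without the 3 choroid-rich libraries and 0 to 2 without single libraries, while the 1 lower gene became 0 to 1.

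The labels do not say that a replicate number marks a shared litter or day. The correlation of the deviations of same-numbered TBI and sham rats was 0.127 and 0.073 at day 1 and -0.0383, 0.131, 0.24 and 0.115 at day 14, so not every pair was over 0.1 and the numbers were not taken as pairing the rats. With the replicate block, 7 antigen processing genes were higher at day 1 and 5 at day 14, as without it, and Psme1 between the shams lost its call (0.46, edgeR adjusted p = 0.0557).

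Over all genes, the day 1 counts of 1437 higher and 1021 lower became 557 and 94 with only the groups compared, 3220 and 2698 against the day 14 shams, and 2292 and 2032 against all 6 shams, and ran from 555 to 1677 and from 367 to 1467 without single libraries. At day 14 the 524 higher became 903 with only the groups compared, and the 47 lower became 112 with DESeq2, 205 with only the groups compared, 18 without the choroid-rich libraries and 21 to 84 without single libraries. For the difference between the days, 186 higher and 288 lower became 56 and 110 with the choroid plexus covariate, 100 and 178 with limma-voom, 448 and 595 with DESeq2, and 87 and 189 without the choroid-rich libraries, with 78 to 300 and 126 to 430 without single libraries. Between the shams, 1450 higher and 1014 lower ran from 673 to 1924 and from 270 to 1507, and the lower count was 600 without the choroid-rich libraries.

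Some calls of single antigen processing genes changed. At day 1, with only the groups compared, B2m was 0.93 (edgeR adjusted p = 0.0872), Tap1 1.46 (edgeR adjusted p = 0.0989) and Psme2 1.21 (edgeR adjusted p = 0.0903), and Tap1 was 1.49 with the covariate (edgeR adjusted p = 0.0509). At day 14, against all 6 shams, B2m was 0.55 (edgeR adjusted p = 0.289) and Psme1 0.49 (edgeR adjusted p = 0.0904), while Tapbp passed with only the groups compared (0.42, edgeR adjusted p = 0.0488). With the covariate, the day 14 call of Tap1 was lost too (1.19, edgeR adjusted p = 0.0738). No alternative ended the calls of Psmb8 and Psmb9 at either day.

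The sign of some values changed, and the cause was not tested. Most were near 0, but RT1-M1-4 (2.49) and RT1-T24-1 (2.41) at day 1 were called and Hfe at day 14 was 0.82. Against the day 14 shams, the day 1 log2 fold changes were -0.30 for Tapbp, -0.89 for RT1-M1-4, -0.055 for RT1-T24-1, -0.15 for Psmb5 and 1.08 for Psme3. Against all 6 shams they were -0.081 for Tapbp, -0.36 for RT1-M1-4, -0.057 for Psmb5 and 0.61 for Psme3, and the day 14 values were 0.021 for Psme2, 0.058 for Psmb4, -0.13 for Psmb2, 0.015 for Psmd8 and 0.032 for Psmg1. The replicate block gave -0.0087 for Psmb7 at day 1. Without the choroid-rich libraries, Psmb7 was -0.047 at day 1, Psme2 0.11 and Psmb2 -0.039 at day 14, B2m -0.23 for the difference between the days, Erap1 0.14 between the TBI groups, and Psmb8 -0.049 and Psmb9 -0.32 between the shams. At day 14, Psme2 was 0.0050 with limma-voom and 0.010 with only the groups compared, Psmg1 0.015 with only the groups compared, and Psmb2 -0.0014 with median-of-ratios factors and -0.00072 with DESeq2. With the covariate, the day 14 values were -0.054 for Psmb2, -0.019 for Psmd5, -0.072 for Hfe and 0.012 for Psme3. The B2m difference between the days was -0.12 with the covariate, -0.027 with limma-voom and -0.013 with at least 10 counts required.

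Without single libraries, the day 1 values ran from -0.11 to 0.41 for Psmb5, from -0.035 to 0.13 for Psmb7 and from -0.30 to 0.28 for Psme3. The day 14 values ran from -0.17 to 0.12 for Psme2, -0.068 to 0.13 for Erap1, -0.036 to 0.064 for Psmb2, -0.018 to 0.056 for Psmd5, -0.063 to 0.017 for Psmg1 and -0.11 to 0.0030 for Psme3. The differences between the days ran from -0.39 to 0.32 for B2m, -0.94 to 0.27 for Tap1 and -0.47 to 0.22 for Tapbp. Between the TBI groups, Tap1 ran from -0.12 to 0.42 and Erap1 from -0.17 to 0.029. Between the shams, Tap1 ran from -1.10 to 0.11, Psmb8 from -0.055 to 0.50, Psmb9 from -0.32 to 0.57, Psmb10 from -0.43 to 0.13 and Psme2 from -0.76 to 0.30.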
